A study of Homo sapiens with 8 samples.

Results

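Small nucleolar RNA (snoRNA) host genes carry snoRNAs in their introns. The spliced exons of the genes described here are long noncoding RNAs. They were taken as the rows of the deposited count table whose symbol is on a list of 10 names (GAS5, SNHG1, SNHG5, SNHG6, SNHG7, SNHG8, SNHG12, SNHG15, SNHG16 and ZFAS1). All 10 were among the 27140 genes of the table, and all 10 passed the filter on low counts, as did 15289 genes in all. RNA was sequenced from 8 libraries of LNCaP, a human prostate adenocarcinoma line, with 2 libraries in each of 4 stable lines. METTL3 is the methyltransferase that places N6-methyladenosine on messenger RNA. The mutant rescue carried a hairpin against METTL3 and a hairpin-resistant, catalytically dead METTL3. The wild-type rescue carried the same hairpin and a hairpin-resistant wild-type METTL3. The knockdown carried the hairpin against METTL3 and a vector, and the control carried a control hairpin and a vector. Lentivirus was used for all 4 lines, and puromycin at 1 µg/ml for their selection. The labels do not say what the vectors hold, whether a line is 1 clone or a pool, or whether the libraries of a line came from separate cultures, so p-values measure only the spread between these libraries. That spread was close to counting noise, with a chi-square per degree of freedom of 1.21 to 1.35 within lines. The common coefficient of variation beyond counting was 1.4%. Small p-values and large shares of genes called thus do not measure variation between separately made lines.

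Box C/D snoRNAs guide ribose methylation and box H/ACA snoRNAs guide pseudouridylation of ribosomal and spliceosomal RNA. The host transcript is spliced, the intron is debranched and trimmed to the snoRNA, and the joined exons are exported. Many of these exon RNAs start with a pyrimidine tract like that of ribosomal protein messenger RNAs (the terminal oligopyrimidine, or TOP, tract). Their short open reading frames stop upstream of exon junctions, and translation then exposes them to nonsense-mediated decay (NMD), so their levels depend on both transcription and decay. Several of the 10 are widely studied as noncoding RNAs that are abundant in cancer cells.

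The start of a host gene is the region where the pyrimidine tract lies, and it is shown for the 3 members that differed most between lines and that have an entry. The sequences are RefSeq's (GRCh38.p14), which held 8 of the 10 members; SNHG6 and SNHG15 are named only. Each runs from 40 bases before the annotated start to 20 bases after it. Capitals mark TATAA before the start and the run of C and T with the most bases between 10 before and 20 after the start, drawn whole where it begins earlier. In SNHG7 the marked run ends before the annotated start. They are SNHG12 at chr1:28581854-28581913 on the minus strand, SNHG7 at chr9:136728165-136728224 on the minus strand and ZFAS1 at chr20:49278602-49278661 on the plus strand.
SNHG12: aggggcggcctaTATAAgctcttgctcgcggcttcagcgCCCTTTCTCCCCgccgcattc
SNHG7: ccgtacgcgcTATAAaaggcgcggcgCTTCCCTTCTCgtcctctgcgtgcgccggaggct
ZFAS1: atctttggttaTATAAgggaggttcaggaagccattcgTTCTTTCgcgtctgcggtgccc

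The letters TATAA were found on the sense strand in the 40 bases before the start of 5 of the 8 members, against 4.34% of 35116 promoters. A run of at least 6 C or T bases lay between 10 bases before and 20 bases after the start in 7 of the 8, against 30.4% of the promoters. The longest run had 12 bases in SNHG12, 8 in SNHG16 and 7 in SNHG1 and ZFAS1. In SNHG7 it had 7 bases inside that window and 11 with those that lie before it. That whole run lies before the annotated start of SNHG7, so it is not a tract at the start of the annotated transcript. A shorter, unmarked run of 6 bases (tcctct) spans that start and meets the minimum as well. The longest runs of SNHG1 and SNHG16 begin after their annotated starts. In GAS5 it had 4 bases, but the RefSeq start used there lies 163 bases from the nearest GENCODE start. CACGTG, searched over 300 bases, was found only in SNHG7 of the 8, against 7.26% of the promoters. These are matches of letters, not tested sites. In the GENCODE annotation (release 29, used here for exon structure), the transcript closest to the deposited gene length had 2 exons in SNHG5 and SNHG8 and 12 in GAS5. Its first open reading frame ran over 4 codons in SNHG6 and SNHG8 and over 117 in ZFAS1. All 10 transcripts had at least 1 exon junction 50 or more bases after that stop codon, and GAS5 and SNHG1 had 5. All 33 annotated snoRNAs of the list lay in introns. SNHG7, SNHG12 and ZFAS1 are annotated as antisense genes. The strand setting of the counting is not given in the sources used here, so reads of these 3 and of their antisense partners cannot be told apart.

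The libraries held between 15200343 and 17893241 counts. METTL3 averaged 333.7 ± 0.632 CPM (counts relative to the TMM-scaled library size) in the mutant rescue, 317 ± 10.8 in the wild-type rescue, 28.8 ± 3.64 in the knockdown and 68.4 ± 0.0784 in the control (SD, n = 2 each). Endogenous and introduced METTL3 are counted on 1 gene. All 9 LNCaP markers were present, the lowest being KRT18 at 131 CPM or more, and their summed level was 7773 to 7805 CPM in the mutant rescue, 7810 to 7893 in the wild-type rescue, 7592 to 7663 in knockdown cells and 9434 to 9482 in the control. Of the 9, all fell in the mutant rescue, 7 fell and 0 rose in the wild-type rescue, and 8 fell and 1 rose in the knockdown, each relative to the control (edgeR adjusted p under 0.05). Over all tested genes, 29.7%, 25.5% and 25.1% were lower in these comparisons in that order. Of 10 markers of basal, immune, endothelial and fibroblast cells, 3 or 4 in each group had no count, and their summed level was 105 to 111 CPM in the mutant rescue, 103 to 104 in the wild-type rescue, 94.5 to 99.8 in knockdown cells and 87.6 to 88.1 in the control. COL1A1 made up most of it. The part of either marker list in the host gene results was not tested. In bulk RNA, a lower level in fewer cells and less RNA per cell cannot be told apart.

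Together the 10 host genes took between 0.0687% and 0.0752% of all counts in a library. Their summed level was 755 ± 1.73 CPM in the mutant rescue, 714 ± 16.4 in the wild-type rescue, 686 ± 5.91 in the knockdown and 721 ± 15.8 in the control (SD, n = 2 each). The mutant rescue libraries were above, and the knockdown libraries below, every library of the other lines, whereas those of the wild-type rescue and the control overlapped. Per kilobase of the deposited gene length, GAS5 was the most abundant in every line, at 294 ± 1.75 CPM per kb in the mutant rescue, 284 ± 2.64 in the wild-type rescue, 269 ± 5.74 in the knockdown and 284 ± 4.55 in the control. GAS5 was named for its accumulation in growth-arrested cells. In the control, ZFAS1 (137 ± 6.28 CPM per kb) and SNHG8 (134 ± 5.98) followed and did not differ beyond their spread. SNHG1 (84.7 ± 0.140), SNHG6 (60.6 ± 3.37), SNHG16 (47.1 ± 0.135) and SNHG15 (35.3 ± 3.91) came next. SNHG12 (18.2 ± 2.09) and SNHG5 (16.7 ± 2.08) lay within their spread of each other, and SNHG7 (8.93 ± 0.186) was lowest. In the mutant rescue ZFAS1 stood at 176 ± 1.14 and SNHG8 at 112 ± 4.69 CPM per kb, and SNHG6 (87.1 ± 5.87) was level with SNHG1 (86.0 ± 3.10).

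**Figure D1:**
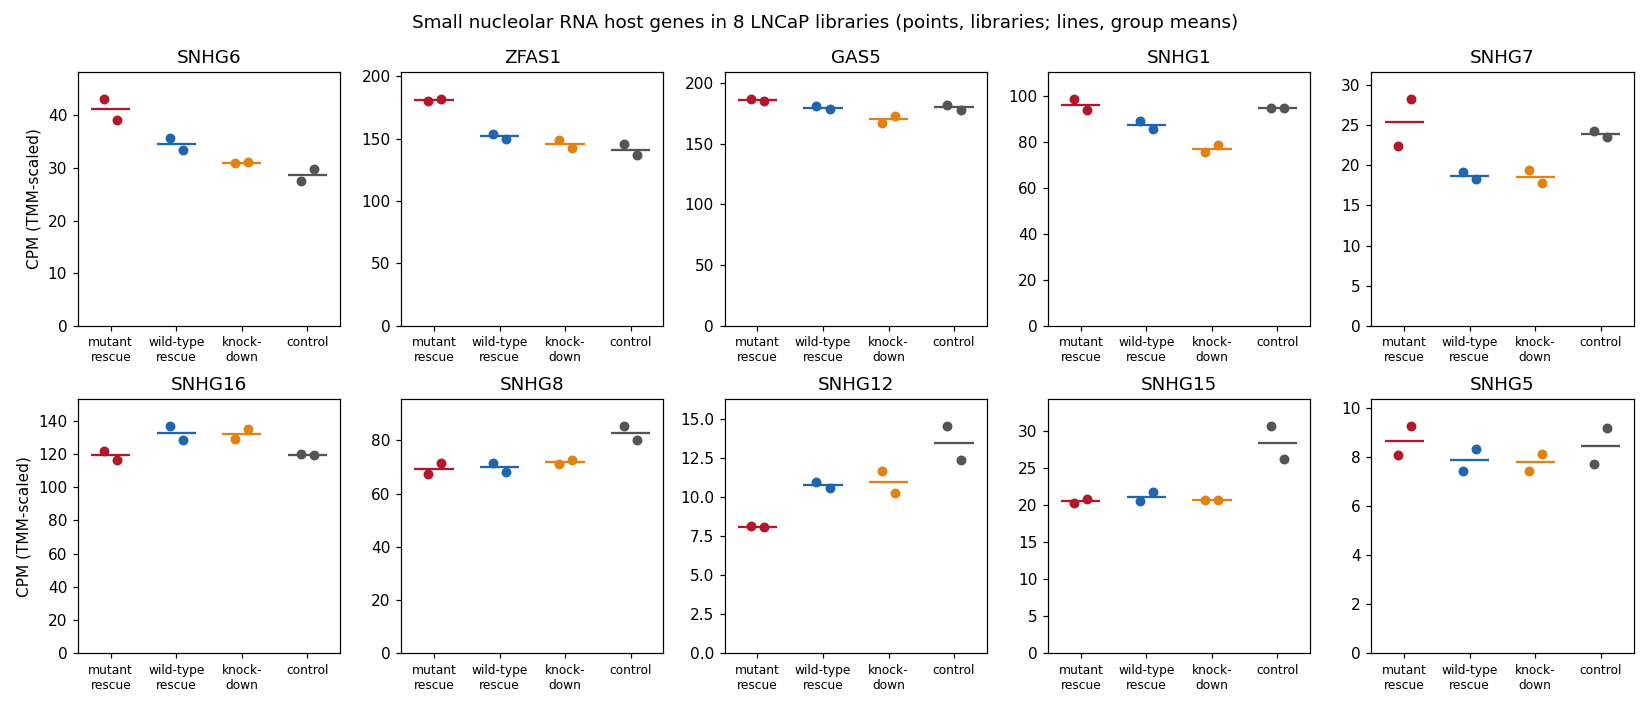
Level of each host gene in every library, in CPM on separate axes per gene, with the mutant rescue, wild-type rescue, knockdown and control from left to right. Points are libraries and lines are means of 2, and SNHG6 and ZFAS1 are highest in the mutant rescue, at 41.1 and 181 CPM.

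SNHG6 and ZFAS1 were highest in the mutant rescue. SNHG6, which hosts the box C/D snoRNA SNORD87, had 43.1 and 39.2 CPM in the mutant rescue, 35.7 and 33.3 in the wild-type rescue, 30.9 and 31.1 in knockdown cells and 27.5 and 29.7 in the control. ZFAS1 lies antisense to the promoter of ZNFX1 and hosts the SNORD12 snoRNAs. It had 180.03 and 182 CPM in the mutant rescue, 154 and 149.9 in the wild-type rescue, 149 and 143 in knockdown cells and 146 and 136 in the control. For both genes the mutant rescue libraries were above all others. Against the control, mutant rescue SNHG6 was 0.52 higher on the log2 scale (SE 0.07, edgeR quasi-likelihood, Benjamini-Hochberg adjusted p = 3.69e-12) and ZFAS1 0.36 higher (SE 0.03, edgeR adjusted p = 4.55e-20).

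Under TMM scaling SNHG1 and GAS5 were lowest in the knockdown. For GAS5 this order depended on the scaling, as given with the comparisons below. SNHG1, first described as the host gene of 8 box C/D snoRNAs and known as UHG, had 98.6 and 93.7 CPM in the mutant rescue, 89.1 and 85.4 in the wild-type rescue, 75.4 and 78.7 in knockdown cells and 94.6 and 94.8 in the control. GAS5 had 187 and 185 CPM in the mutant rescue, 181 and 178 in the wild-type rescue, 167 and 173 in knockdown cells and 182 and 178 in the control. The knockdown libraries of both genes lay below every library of the other lines. SNHG1 in the knockdown differed from the control by -0.30 on the log2 scale (SE 0.04, edgeR adjusted p = 9.84e-10), and GAS5 by -0.08 (SE 0.03, edgeR adjusted p = 0.0182).

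SNHG7 and SNHG16 paired the knockdown with the wild-type rescue, in opposite directions. SNHG7 had 22.4 and 28.3 CPM in the mutant rescue, 19.1 and 18.3 in the wild-type rescue, 19.4 and 17.8 in knockdown cells and 24.3 and 23.6 in the control. SNHG16, the host of the SNORD1 snoRNAs, had 122 and 117 CPM in the mutant rescue, 137 and 129 in the wild-type rescue, 129 and 135 in knockdown cells and 119.9 and 119 in the control. For SNHG7 the wild-type rescue and knockdown libraries lay below all mutant rescue and control libraries, and for SNHG16 they lay above them. The mutant rescue libraries of SNHG7 differed more from each other than those of any other line, and they lay on either side of the control.

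SNHG8, SNHG12 and SNHG15 were highest in the control. SNHG8, whose intron holds the box H/ACA snoRNA SNORA24, had 67.2 and 71.3 CPM in the mutant rescue, 71.6 and 68.1 in the wild-type rescue, 71.0 and 72.7 in knockdown cells and 85.3 and 80.1 in the control. SNHG15, the host of SNORA9, had 20.2 and 20.8 CPM in the mutant rescue, 20.5 and 21.7 in the wild-type rescue, 20.6 and 20.6 in knockdown cells and 30.6 and 26.1 in the control. SNHG12, the host of SNORA44 and SNORA61 among others, had 8.14 and 8.06 CPM in the mutant rescue, 10.96 and 10.6 in the wild-type rescue, 11.7 and 10.2 in knockdown cells and 14.5 and 12.3 in the control. For SNHG8 and SNHG15 the libraries of the 3 hairpin lines overlapped and all lay below the control, whereas for SNHG12 the mutant rescue lay below the other hairpin lines as well. SNHG5, the host of SNORD50A and SNORD50B, had 8.07 and 9.25 CPM in the mutant rescue, 7.41 and 8.34 in the wild-type rescue, 7.45 and 8.13 in knockdown cells and 7.71 and 9.20 in the control. Its libraries overlapped in every pair of lines, and with 115 to 151 counts a library it was among the least covered members. These patterns were described after the values were seen.

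The first comparison asks how the host genes stand when METTL3 is depleted. In the knockdown, 6 of the 10 fell and 1 rose relative to the control at an edgeR adjusted p under 0.05, against 48% of all tested genes called either way (22.9% higher and 25.1% lower). The libraries of the lines did not overlap for 8 of the 10, against 72.5% of tested genes. The median log2 fold change was -0.16 over the 10 and -0.01 over all tested genes. Besides SNHG1 and GAS5, the genes that fell were SNHG15 (-0.46, SE 0.08, edgeR adjusted p = 1.61e-07), SNHG7 (-0.36, SE 0.08), SNHG12 (-0.29, SE 0.11) and SNHG8 (-0.20, SE 0.05). SNHG16 rose by 0.14 (SE 0.04). SNHG6 (0.12, SE 0.07), ZFAS1 (0.05, SE 0.03) and SNHG5 (-0.12, SE 0.13) were not called. With a trend in gene length removed, ZFAS1 was called higher (0.08, edgeR adjusted p = 0.0384), also with the replicate number as a block (0.08, edgeR adjusted p = 0.0365). GAS5 was not called by DESeq2 (adjusted p = 0.174), without a filter on low counts (0.0513), without knockdown replicate 1 (0.215) or without control replicate 1 (0.159), within a range of 0.000153 to 0.215 over 16 alternatives. SNHG12 was not called by DESeq2 (0.179), without knockdown replicate 2 (0.219) or without control replicate 1 (0.338), within a range of 0.00516 to 0.338.

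**Figure D2:**
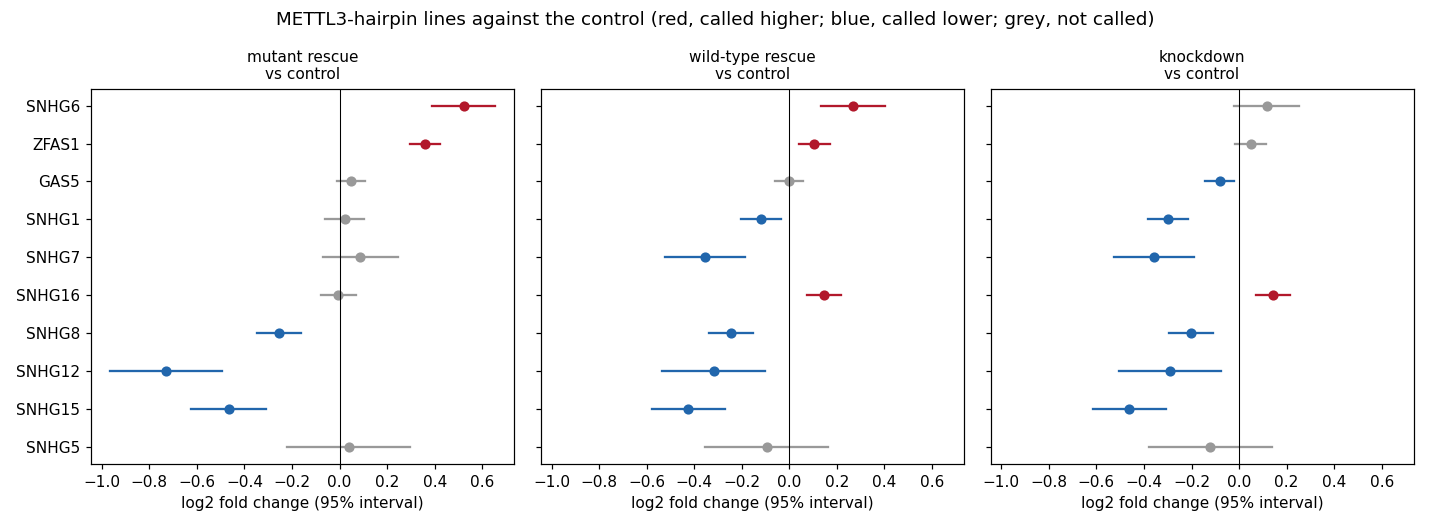
Log2 fold change of each host gene over the control in the mutant rescue, wild-type rescue and knockdown, with 95% intervals from the edgeR fit and red for called higher, blue for called lower and grey for not called. The 3 comparisons share the control libraries, and SNHG15 lies at -0.47, -0.43 and -0.46 while SNHG12 reaches -0.73 and SNHG6 0.52 in the mutant rescue.

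The rescues were next set against the control, with which the knockdown is also compared, so these results share control libraries. In the wild-type rescue 3 host genes rose and 5 fell relative to the control, against 49.3% of tested genes called (23.8% higher and 25.5% lower), and the libraries did not overlap for 8 of the 10, against 72.7%, with a median of -0.11 over the 10 and -0.0022 over all tested genes. SNHG15 (-0.43, SE 0.08), SNHG7 (-0.36, SE 0.08), SNHG12 (-0.32, SE 0.11), SNHG8 (-0.24, SE 0.05) and SNHG1 (-0.12, SE 0.04) fell, and SNHG6 (0.27, SE 0.07), SNHG16 (0.15, SE 0.04) and ZFAS1 (0.10, SE 0.03) rose. The edgeR adjusted p was 0.0123 for SNHG1, 0.01 for SNHG12 and 0.00514 for ZFAS1. In DESeq2 these 3 were not called (adjusted p = 0.113, 0.125 and 0.0563), and over the alternatives their adjusted p reached 0.177, 0.252 and 0.444. SNHG1 was lost without wild-type rescue replicate 2 (0.177) or control replicate 2 (0.0565), SNHG12 without wild-type rescue replicate 2 (0.0695) or control replicate 1 (0.252), and ZFAS1 without wild-type rescue replicate 1 (0.0561) or control replicate 2 (0.261). SNHG6 stood at 0.11 (adjusted p = 0.164) with the length trend removed and at 0.10 (0.198) when scaled to ribosomal protein genes, and SNHG16 turned to -0.017 (0.735) under that scaling. GAS5 (-0.0024, SE 0.03) and SNHG5 (-0.10, SE 0.13) were not called. However, GAS5 was called lower with the length trend removed (-0.14, edgeR adjusted p = 4.43e-05) and when scaled to ribosomal protein genes (-0.17, edgeR adjusted p = 2.3e-06).

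In the mutant rescue 2 host genes rose and 3 fell relative to the control, against 58.8% of tested genes called (29.1% higher and 29.7% lower). The libraries did not overlap for 6 of the 10, against 77.7%. The median was 0.03 over the 10 and -0.00016 over all tested genes. SNHG12 fell by 0.73 on the log2 scale (SE 0.12, edgeR adjusted p = 2.76e-08), from which a fold of 0.603 follows, SNHG15 by 0.47 (SE 0.08) and SNHG8 by 0.25 (SE 0.05). SNHG6 and ZFAS1 rose, as given with their levels. GAS5 (0.05, SE 0.03), SNHG1 (0.02, SE 0.04), SNHG16 (-0.01, SE 0.04), SNHG5 (0.04, SE 0.13) and SNHG7 (0.09, SE 0.08) were not called. Without mutant rescue replicate 1, SNHG7 was called at 0.24 (adjusted p = 0.0225), within a range of 0.0225 to 0.611.

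The comparison of each rescue with the knockdown asks which host genes move when METTL3 is supplied again. In the wild-type rescue 2 host genes rose and none fell relative to the knockdown, against 24% of tested genes called (10.8% higher and 13.2% lower). The libraries did not overlap for 4 of the 10, against 57.7%, and the median was 0.03 over the 10 and 0.01 over all tested genes. SNHG1 rose by 0.18 (SE 0.04, edgeR adjusted p = 0.000622) and GAS5 by 0.08 (SE 0.03, edgeR adjusted p = 0.0395). SNHG6 (0.15, SE 0.07, edgeR adjusted p = 0.0806) and ZFAS1 (0.06, SE 0.03) were not called, although their libraries did not overlap. Estimates were near 0 for SNHG16 (0.0041, SE 0.04), SNHG7 (0.0034, SE 0.09), SNHG12 (-0.03, SE 0.11), SNHG15 (0.04, SE 0.08), SNHG8 (-0.04, SE 0.05) and SNHG5 (0.03, SE 0.13). The call of GAS5 ended with DESeq2 (adjusted p = 0.218) and without wild-type rescue replicate 1 (0.163), wild-type rescue replicate 2 (0.0881) or knockdown replicate 1 (0.341), within a range of 0.0328 to 0.544. SNHG8 was called lower with a trend in gene length removed (-0.17, adjusted p = 0.00354) and when scaled to ribosomal protein genes (-0.15, adjusted p = 0.00915). SNHG1 was no longer called once a trend with gene length was removed or the libraries were scaled to ribosomal protein genes (highest adjusted p = 0.255).

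In the mutant rescue 5 host genes rose and 2 fell relative to the knockdown, against 51.7% of tested genes called (25.9% higher and 25.8% lower). The libraries did not overlap for 7 of the 10, against 74%, and the median was 0.14 over the 10 and 0.0017 over all tested genes. SNHG7 (0.45, SE 0.08), SNHG6 (0.41, SE 0.06), SNHG1 (0.32, SE 0.04), ZFAS1 (0.31, SE 0.03) and GAS5 (0.13, SE 0.03) rose, and SNHG12 (-0.44, SE 0.12) and SNHG16 (-0.15, SE 0.04) fell. The edgeR adjusted p ranged up to 0.00127, for SNHG12. SNHG12 was lost without knockdown replicate 1 (0.0666, the highest of its alternatives, the lowest being 9.32e-06). Without mutant rescue replicate 2, SNHG7 stood at 0.27 (adjusted p = 0.0278). GAS5 turned to -0.0074 (adjusted p = 0.858) with the length trend removed and to -0.023 (0.57) when scaled to ribosomal protein genes, and SNHG8 was called lower under both (-0.19 and -0.21). Both comparisons share the knockdown libraries.

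**Figure D3:**
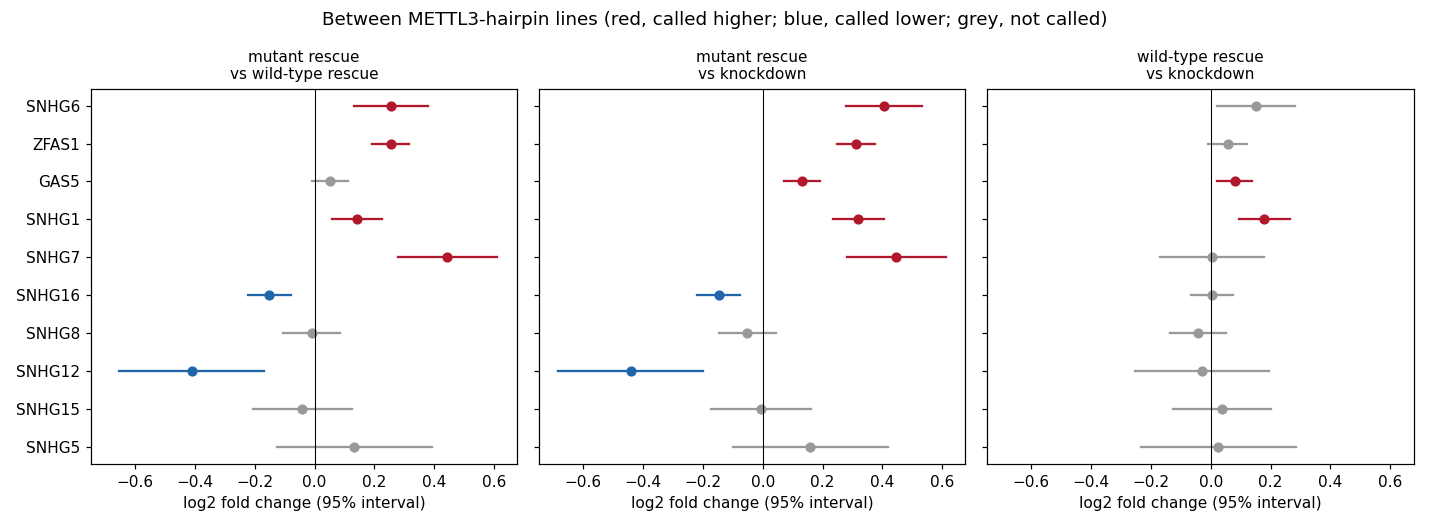
Log2 fold change of each host gene in the mutant rescue over the wild-type rescue, the mutant rescue over the knockdown and the wild-type rescue over the knockdown, with 95% intervals from the edgeR fit and colour for calls (red higher, blue lower, grey not called). SNHG7 and SNHG16 lie away from 0 in both comparisons that involve the mutant rescue and near 0 in the wild-type rescue over the knockdown.

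The rescues differ in METTL3 catalytic activity and were compared directly. In the mutant rescue 4 host genes rose and 2 fell relative to the wild-type rescue, against 41.3% of tested genes called (21% higher and 20.3% lower). The libraries did not overlap for 7 of the 10, against 67.7%, and the medians were 0.09 over the 10 and 3.21e-05 over all tested genes. SNHG7 rose by 0.44 (SE 0.08, edgeR adjusted p = 3.50e-06), ZFAS1 by 0.25 (SE 0.03, edgeR adjusted p = 6.77e-12), SNHG6 by 0.25 (SE 0.06) and SNHG1 by 0.14 (SE 0.04). SNHG12 fell by 0.41 (SE 0.12) and SNHG16 by 0.15 (SE 0.04). GAS5 (0.05, SE 0.03), SNHG5 (0.13, SE 0.13), SNHG8 (-0.01, SE 0.05) and SNHG15 (-0.04, SE 0.08) were not called. Without mutant rescue replicate 2, SNHG7 stood at 0.26 (adjusted p = 0.0411). SNHG1 was lost without mutant rescue replicate 1 (adjusted p = 0.118) or wild-type rescue replicate 2 (0.0966), within a range of 0.00165 to 0.118. SNHG6 was lost without mutant rescue replicate 1 (0.0533, the highest of its alternatives), and SNHG12 with DESeq2 (0.0545, the highest of its alternatives).

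Of 78 tested ribosomal protein genes, 61 rose relative to the control under TMM in the mutant rescue, 65 did so in the wild-type rescue and 37 did in knockdown cells, and several host gene calls changed when the libraries were scaled to them. Scaling the libraries to equal sums of ribosomal protein counts moved the median of all genes to -0.07 in the knockdown over the control, -0.10 in the wild-type rescue over the knockdown, -0.15 in the mutant rescue over the knockdown, -0.04 in the mutant rescue over the wild-type rescue, -0.17 in the wild-type rescue over the control and -0.21 in the mutant rescue over the control. The host genes then split into higher and lower as 1 and 6, 0 and 2, 4 and 3, 3 and 2, 0 and 6, and 2 and 6 in that order of comparisons. All tested genes split as 2666 and 4872 in the knockdown over the control, against 3506 and 3831 under TMM, and as 2046 and 7652 in the mutant rescue over the control, against 4451 and 4542. They split as 306 and 4622 in the wild-type rescue and 1829 and 6548 in the mutant rescue over the knockdown. The mutant over the wild-type rescue gave 2341 and 3823, and the wild-type rescue over the control 1556 and 6976. The host gene splits are to be read against these shifts. SNHG6 and ZFAS1 stayed higher, and SNHG8, SNHG12 and SNHG15 lower, in the mutant rescue than in the control under this scaling.

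Across the 8 libraries the 10 host genes did not vary as 1 group. Of the 45 pairs, 26 had a positive and 19 a negative Pearson correlation of log2 CPM, with a median of 0.131. SNHG8 and SNHG15 were closest (0.928), followed by GAS5 and SNHG1 (0.915) and SNHG6 and ZFAS1 (0.899). SNHG6 and SNHG12 were most opposed (-0.921), next to SNHG7 and SNHG16 (-0.91). These values describe 8 libraries in 4 lines that share library size scaling. The genes most like the mean profile of the 10, among 11562 others with at least 5 CPM, were CLK2, a kinase of splicing factors (0.988), UBE2J2, a ubiquitin-conjugating enzyme (0.984), TEX19 (0.981), NCBP3, a cap-binding protein (0.981), and HES1, a transcriptional repressor downstream of Notch (0.979).

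**Figure D4:**
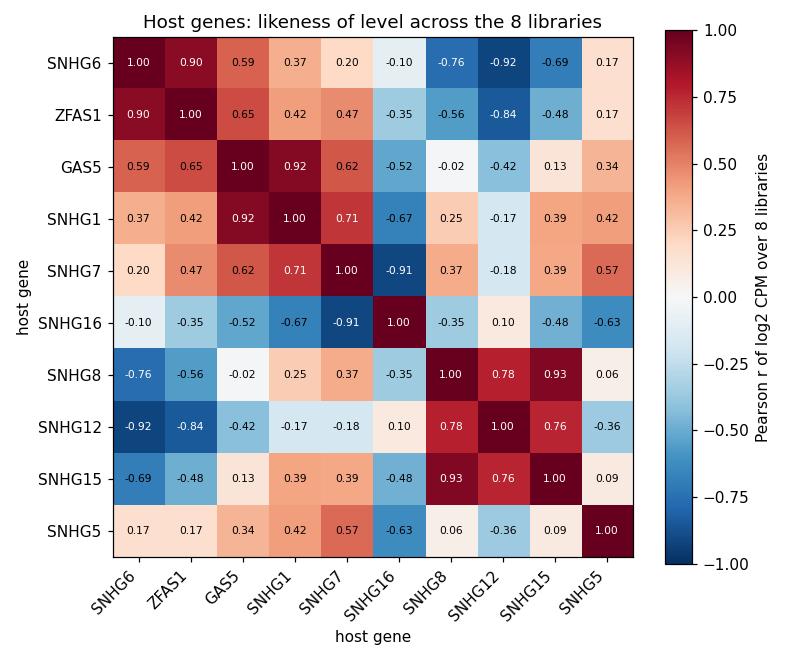
Pearson correlation of log2 CPM over the 8 libraries for each pair of host genes, with colour from -1 to 1. SNHG8 and SNHG15 reach 0.928 and SNHG6 and SNHG12 -0.921.

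The snoRNAs themselves were rows of the same table, although libraries of messenger RNA hold them poorly and some of their reads can come from unspliced host RNA. Of 35 listed snoRNAs, 33 were rows of the table under the symbols used, and 22 passed the filter on low counts. Their summed level was 38.3 and 41.5 CPM in the mutant rescue, 44.4 and 43.1 in the wild-type rescue, 42.5 and 40.3 in knockdown cells and 55.2 and 54.9 in the control. All 6 hairpin-line libraries were below both control libraries. This sum was not tested. In the edgeR fit over all genes, 7 of the 22 were called lower and 0 higher in the mutant rescue, 4 lower and 0 higher in the wild-type rescue and 4 lower and 0 higher in the knockdown, each relative to the control, where 29.7%, 25.5% and 25.1% of all tested genes were lower. Their median log2 fold changes were -0.55, -0.35 and -0.41, over rows of few counts. A row such as SNORA24, given below, reached the filter's minimum count only in the control, which favours calls lower than the control. The 10 snoRNAs of GAS5 summed to 16.8 and 17.6 CPM in the mutant rescue, 20.4 and 21.3 in the wild-type rescue, 20.3 and 18.4 in knockdown cells and 25.4 and 24.3 in the control. Per 100 counts of GAS5 itself, they had 9 and 9.49 counts in the mutant rescue, 11.3 and 12 in the wild-type rescue, 12.1 and 10.7 in knockdown cells and 14 and 13.6 in the control, so that the order of the lines differs from that of the host. For SNHG1 the same ratio was 16.6 and 19.6 in the mutant rescue, 19.2 and 18.4 in the wild-type rescue, 20.2 and 19.7 in knockdown cells and 21.9 and 23.4 in the control. ZFAS1 had 0.845 and 1.21, 1.47 and 0.737, 1.67 and 1.38, and 1.95 and 1.85 in that order, from 20 to 45 snoRNA counts a library. SNHG12 had 24.4 and 21.9, 21.8 and 24, 16.4 and 19.9, and 16.5 and 21.4, from 28 to 46. Its rescues were above the control only narrowly (21.8 against 21.4). No ratio was tested. The 8 snoRNAs of SNHG1 summed to 16.3 and 18.3 CPM in the mutant rescue, 17.1 and 15.7 in the wild-type rescue, 15.2 and 15.5 in knockdown cells and 20.7 and 22.2 in the control.

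**Figure D5:**
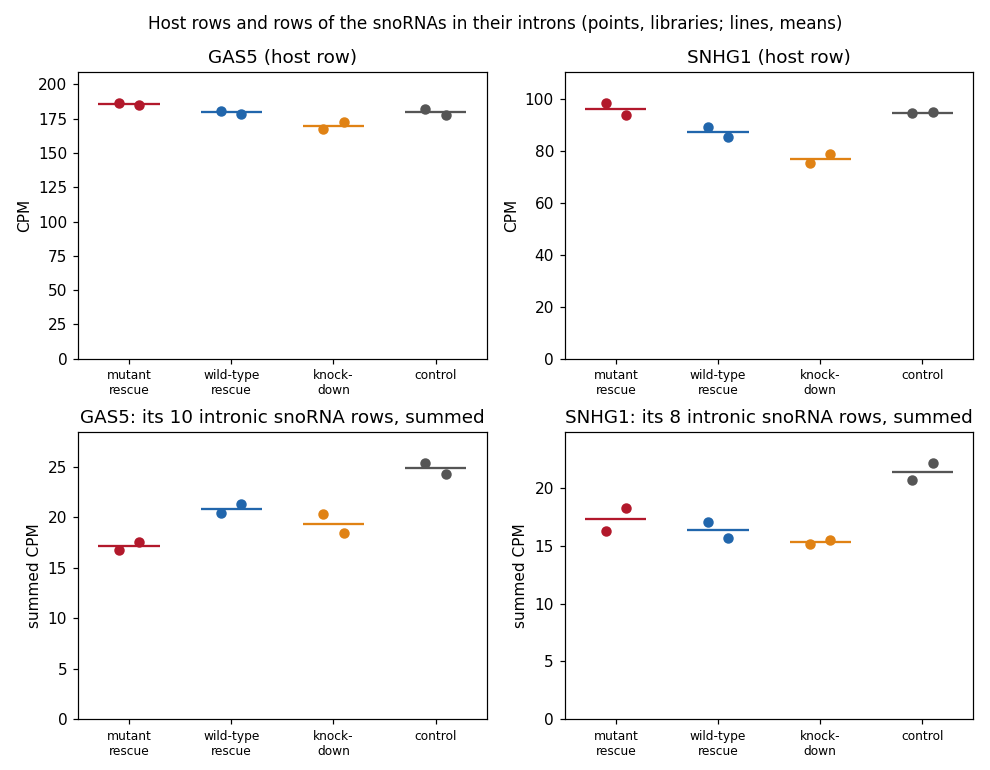
Level of GAS5 and SNHG1 (top) and the summed level of the snoRNA rows of each (bottom) by library, in CPM, with the mutant rescue, wild-type rescue, knockdown and control from left to right, points for libraries and lines for means. For the snoRNAs of both hosts the control libraries, at 24.3 to 25.4 and 20.7 to 22.2 CPM, are above all others.

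SNORD44 of GAS5 and SNORA24 of SNHG8 are shown as a box C/D and a box H/ACA example, and were chosen after the values were seen, as the snoRNA rows called lower than the control in all 3 hairpin lines. SNORD44 lies at chr1:173865968-173866028 on the minus strand in GRCh38, and the capitals mark its C box (TGATGA) and its D box (CTGA).
SNORD44: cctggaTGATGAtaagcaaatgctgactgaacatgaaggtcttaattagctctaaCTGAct
It had 16 and 26 counts in the mutant rescue (1.06 and 1.64 CPM), 25 and 34 in the wild-type rescue (1.61 and 1.88 CPM), 41 and 26 in knockdown cells (2.31 and 1.65 CPM) and 59 and 46 in the control (3.73 and 2.90 CPM). The control libraries were above all others, with log2 fold changes of -1.29 (SE 0.27, edgeR adjusted p = 1.28e-05) in the mutant rescue, -0.91 (SE 0.25, edgeR adjusted p = 0.00103) in the wild-type rescue and -0.73 (SE 0.24, edgeR adjusted p = 0.00826) in knockdown cells. SNORA24 lies at chr4:118279190-118279320 on the plus strand, and the capitals mark its ACA box.
SNORA24: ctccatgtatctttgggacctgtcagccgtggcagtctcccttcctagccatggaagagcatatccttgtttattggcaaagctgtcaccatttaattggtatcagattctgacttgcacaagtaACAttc
It had 3 and 4 counts in the mutant rescue, 5 and 9 in the wild-type rescue, 5 and 9 in knockdown cells and 12 and 17 in the control, which is too few to set a firm fold. Only its control libraries held 10 or more counts, so it passed the filter through the line where it is high. Its calls (edgeR adjusted p = 0.00158, 0.0458 and 0.0489 for the 3 hairpin lines over the control) are therefore no separate support for a fall.

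The proteins that assemble and carry snoRNAs were read from a list of 18 tested genes. In the mutant rescue 13 fell and 3 rose relative to the control, 13 fell and 3 rose relative to the wild-type rescue, and 13 fell and 3 rose relative to the knockdown. Relative to the control, 10 fell and 1 rose in the wild-type rescue and 12 fell and 1 rose in the knockdown. Over all tested genes, 29.7%, 20.3%, 25.8%, 25.5% and 25.1% were lower in these 5 comparisons in turn. NOP56 and NOP58 are core proteins of box C/D particles. NOP56, whose own introns hold snoRNAs, averaged 75.2 CPM in the mutant rescue and had log2 fold changes over the control of -1.27 in the mutant rescue, -0.72 in the wild-type rescue and -0.65 in knockdown cells. NOP58 fell by 1.10 in the mutant rescue relative to the control. DKC1, the pseudouridine synthase of box H/ACA particles, fell by 1.05, 0.68 and 0.58 on the log2 scale in the mutant rescue, wild-type rescue and knockdown, whereas NOP10, another H/ACA core protein, rose by 0.70, 0.55 and 0.47. The list's medians were -0.48, -0.22 and -0.23 in those 3 comparisons.

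The other noncoding snoRNA hosts were read from a list as well. Of 13 tested, 5 fell and 1 rose in the mutant rescue, 4 fell and 1 rose in the wild-type rescue and 7 fell and 1 rose in the knockdown, each relative to the control, where 58.8%, 49.3% and 48% of all tested genes were called either way. SNHG17 fell by 1.02, 0.69 and 0.54 on the log2 scale. The 1 that rose was LRRC75A-AS1 each time, by 0.23, 0.14 and 0.07. When scaled to ribosomal protein genes it stood at -0.021 in the wild-type rescue over the control. Of 22 tested protein-coding hosts, 15 fell and 5 rose in the mutant rescue, 11 fell and 6 rose in the wild-type rescue and 10 fell and 6 rose in the knockdown, to be read against the same shares. NCL, which encodes nucleolin, fell by 0.75 in the mutant rescue relative to the knockdown.

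Of the 78 ribosomal protein genes, 61 rose and 4 fell in the mutant rescue, 65 rose and 2 fell in the wild-type rescue and 37 rose and 6 fell in the knockdown relative to the control, with medians of 0.20, 0.17 and 0.05. Over all tested genes the shares higher were 29.1%, 23.8% and 22.9% in that order. With a trend in gene length removed, 50 rose and 7 fell, 43 rose and 8 fell, and 46 rose and 4 fell, with medians of 0.11, 0.06 and 0.07. Scaled to their own sums, which centres them by construction, they split as 25 and 22, 17 and 22, and 14 and 18. RPL27A rose by 0.45, 0.36 and 0.23. Of 16 other TOP messenger RNAs, 7 rose and 5 fell, 7 rose and 3 fell, and 9 rose and 2 fell in the same order, with medians of 0.01, 0.03 and 0.07 that become -0.20, -0.13 and 0.01 when scaled to ribosomal protein genes.

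NMD is the decay route of these host RNAs, and its factors were read from a list of 22 tested genes. Relative to the control, 11 fell and 6 rose in the mutant rescue, 14 fell and 3 rose in the wild-type rescue and 11 fell and 3 rose in the knockdown, with medians of -0.14, -0.23 and -0.10. All tested genes were called either way at 58.8%, 49.3% and 48% in these comparisons, the background for the NMD targets too. The termination factors ETF1 and GSPT1 fell by 0.47 and 0.47 in the mutant rescue and by 0.45 and 0.42 in the wild-type rescue, and PNRC2, which bridges NMD to decapping, rose by 0.73 and 0.29. In the knockdown XRN1, a cytoplasmic exonuclease, rose by 0.46 and RNPS1, a junction complex protein, fell by 0.43. Of 17 genes listed for messenger RNAs known as NMD targets, 8 rose and 7 fell in the mutant rescue, 4 rose and 10 fell in the wild-type rescue and 2 rose and 12 fell in the knockdown relative to the control. The counts are per gene and do not separate its transcript forms, so these calls do not measure NMD. The stress transcript GADD45B rose by 1.17 in the mutant rescue, SRSF3, a splicing factor, fell by 1.30, 0.78 and 0.71 in the 3 lines, and ATF4 fell by 0.72 in the wild-type rescue and 0.78 in knockdown cells.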

How the data were processed

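RNA from 8 LNCaP libraries in 4 groups of 2 was extracted with TRIzol and made into libraries with a KAPA stranded messenger RNA kit, per the labels' protocols. CASAVA, STAR 2.5.2b, featureCounts, DESeq2 and build hg19 are named, per the submitters' processing notes; their roles and settings are not given in the sources used here. The authors deposited raw counts for each gene, beside its length in bases (another kind of value). Coordinates printed are of GRCh38 and were not matched to the counts.

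The host genes and gene lists were chosen with earlier results of these data known. Counts were analysed in R 4.3.3 with edgeR 4.0.16. filterByExpr by group (minimum count 10, minimum total 15) kept 15289 of 27140 genes, and libraries were scaled by TMM. All 8 libraries entered 1 robust quasi-likelihood fit with a mean for each group, and 6 comparisons were tested two-sided. Benjamini-Hochberg adjustment ran over all genes tested, with a call below 0.05. SE is the absolute log2 fold change over the square root of F. With 2 libraries against 2, the smallest exact permutation p is 0.333, so p-values come from the model. Depth was 15200343 to 17893241 counts per library, and reads without molecular identifiers are not independent molecules.

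All 10 host genes are named; from each list, genes come from the 2 largest rises and falls among called genes whose libraries do not overlap, and not all are printed. The steps were tested on simulated data, where 72 of 100 genes changed by 0.5 on the log2 scale were recovered, and 85 of 100 changed by 1. There were 13 false calls among 15289 genes. The simulation changed 200 genes drawn from all levels of expression, far fewer than were called in the data, so its recovery is not that of the host genes. Most host gene changes are smaller than 0.5, and a gene not called can still have changed. The alternatives were DESeq2 1.42.0 size factors and its Wald test, a minimum absolute log2 fold change of 0.5, no filter, a fit restricted to the groups compared, removal of a trend with gene length (lowess span 0.3), the replicate number as a block, both together, scaling to ribosomal protein genes, and each library left out. Summed levels of snoRNA rows were not tested; calls of single snoRNA rows come from the fit over all genes and were added after the values were seen.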

Additional observations from a re-analysis of the deposited data

How the results depend on the processing

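Over 17 alternatives, 60 host gene results (10 genes in 6 comparisons, 35 of them called) were recomputed, and a direction reversed, for results called in the reported fit or in the alternative, only with the length trend removed or with scaling to ribosomal protein genes. With the length trend removed, GAS5 stood at -0.051 in the wild-type rescue over the knockdown, -0.0074 in the mutant rescue over the knockdown and -0.092 in the mutant rescue over the control, and RACK1, a protein-coding host, at -0.036 in the wild-type rescue over the knockdown. The replicate block with the length trend removed gave -0.051, -0.0073, -0.092 and -0.036 for the same 4 results. Scaling to ribosomal protein genes reversed GAS5 (-0.030), SNHG16 (-0.10), RACK1 (-0.045) and RNPS1 (-0.012) in the wild-type rescue over the knockdown. It also reversed GAS5 (-0.023), EIF3F (-0.026) and EIF4A2 (-0.083) in the mutant rescue over the knockdown. In the wild-type rescue over the control it reversed SNHG16 (-0.017), ZFAS1 (-0.059) and LRRC75A-AS1 (-0.021), and in the mutant rescue over the control GAS5 (-0.16), SNHG1 (-0.19) and ZNHIT3 (-0.019). The cause was not tested.

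In the wild-type rescue over the knockdown, 1 host gene was called, in place of 2, with DESeq2 size factors, without a filter, with the DESeq2 Wald test, with the length trend removed (alone or with the block; 0 higher and 1 lower) and in a fit of only the groups compared. The DESeq2 Wald test called 5 in the wild-type rescue over the control, in place of 8, and scaling to ribosomal protein genes called 8 in the mutant rescue over the control, in place of 5. At a minimum absolute log2 fold change of 0.5 no host gene (0) was called, except 2 in the mutant rescue over the control, since that threshold is above most of these changes. Leaving out each library gave 5 to 7 calls in the knockdown over the control, 1 to 2 in the wild-type rescue over the knockdown, 6 to 7 in the mutant rescue over the knockdown, 4 to 6 in the mutant rescue over the wild-type rescue, 6 to 8 in the wild-type rescue over the control and 5 to 6 in the mutant rescue over the control. Over all genes, the DESeq2 Wald test called 1908 in place of 3673 in the wild-type rescue over the knockdown and 4011 in place of 6307 in the mutant rescue over the wild-type rescue. In the wild-type rescue over the control it called 5217 in place of 7531. At the minimum change, 1739, 192, 1861, 928, 1718 and 3014 genes were called, against 7337, 3673, 7909, 6307, 7531 and 8993, in the order of the knockdown over the control, both rescues over the knockdown (wild-type, mutant), the mutant over the wild-type rescue, and both rescues over the control.

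Deviations of same-numbered libraries correlated between -0.0461 and 0.0388 over 10398 genes. The libraries of a line differed by little more than counting noise (chi-square per degree of freedom 1.21 to 1.35). These correlations therefore cannot decide whether the replicate numbers pair the libraries. With the replicate number as a block, 7, 2, 7, 6, 8 and 5 host genes were called in the same order, the counts without it. SNHG5 and SNHG12, with the fewest counts, have the widest intervals.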
